A study of Mus musculus with 39 samples.

Results

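Bone carrying a constitutively active parathyroid hormone (PTH) receptor was compared with its own wild type across all measured genes. The members were chosen by their titles: 12 libraries titled Col1a1-Pth1r H223R, called C1HR here, and 11 titled WT (for Col1a1-Pth1r H223R), called WT here, which together make 23 of the 39 libraries of the series. In C1HR mice a mutated receptor, with arginine in place of histidine at the position in its name, is driven by type I collagen regulatory sequence, which is active in osteoblasts and in other cells that make type I collagen. The WT libraries are those that the labels pair with this transgene, and the remaining libraries, from a separate Sik2/3 deletion experiment with its own wild type, took no part in the fit. The labels give neither age, sex nor strain. Each library is RNA from the cortical bone of a mouse femur with its ends cut off. The submitters state in their design notes that the marrow cavity of C1HR mice and their controls was left unflushed, while the extraction protocol attached to each library describes flushing, and which of these holds could not be settled from the labels.

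The PTH receptor, encoded by Pth1r, is a G protein-coupled receptor on osteoblasts and osteocytes. Through the stimulatory G protein it raises cyclic AMP and activates protein kinase A, which restrains the salt-inducible kinases. Continuous PTH signalling in bone is known to raise bone formation and bone resorption together, to alter secretion of the osteoclast factors Tnfsf11 and Tnfrsf11b, and to lower Sost, the Wnt inhibitor made by osteocytes. Bone also encloses blood-forming marrow, so RNA from a whole bone piece mixes the bone lineage with blood cells, vessels and fat.

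Gene counts were between 14909609 and 16370874 in the C1HR libraries and between 11444686 and 13475805 in the WT libraries. All reads in the files ran the other way: the 12 C1HR libraries held 24444939 to 27286207 and the 11 WT libraries 27958103 to 30621059. Reads that did not align uniquely, which count for no gene, made up 25.9% to 36.5% in C1HR and 44.8% to 55.1% in WT, and their part in the results was not tested. Levels are counts per 1000000 (CPM) after TMM scaling, a correction for differences in RNA composition. The first principal component held 83.8% of the variance over all tested genes and separated the groups without overlap. The libraries C1HR 8 and C1HR 9 stood apart from the other C1HR libraries along it, at -19.4 and -10.7 against -98.2 to -64.1, with the WT libraries at 67.8 to 96.8. Summed red cell, platelet, neutrophil granule, eosinophil and cell-division genes were higher in both of these libraries than in any of the other 10, while summed T cell and macrophage genes were not. The medians of the blood-cell lists below are given with and without them. Nothing in the labels beyond the titles says that libraries came from separate mice, so p-values measure the spread between these samples. In such bulk RNA, fewer cells of a type and less RNA per cell cannot be told apart.

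Of 13976 genes tested with edgeR's quasi-likelihood test, 84.3% passed an adjusted p of 0.05, 43.7% higher and 40.6% lower in C1HR. With a 2-fold change required as well, 38.9% passed, 22.1% higher and 16.8% lower. The median log2 fold change of all tested genes was 0.05, and the lower and upper quartiles were -0.62 and 0.87. At this background a count of genes past the threshold says little about a gene group, so each group below is described by its size of change as well. Changes of over 4-fold past the same threshold were found in 690 genes that were higher and in 1010 that were lower. The 2 groups of libraries did not overlap for 52.8% of tested genes, with C1HR wholly above WT for 27.8% and wholly below it for 24.9%. When libraries were scaled by their total counts alone, the median gene shifted by -0.40 on the log2 scale and the split past 2-fold became 2005 higher and 3596 lower, against 3082 higher and 2348 lower with TMM.

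**Figure D1:**
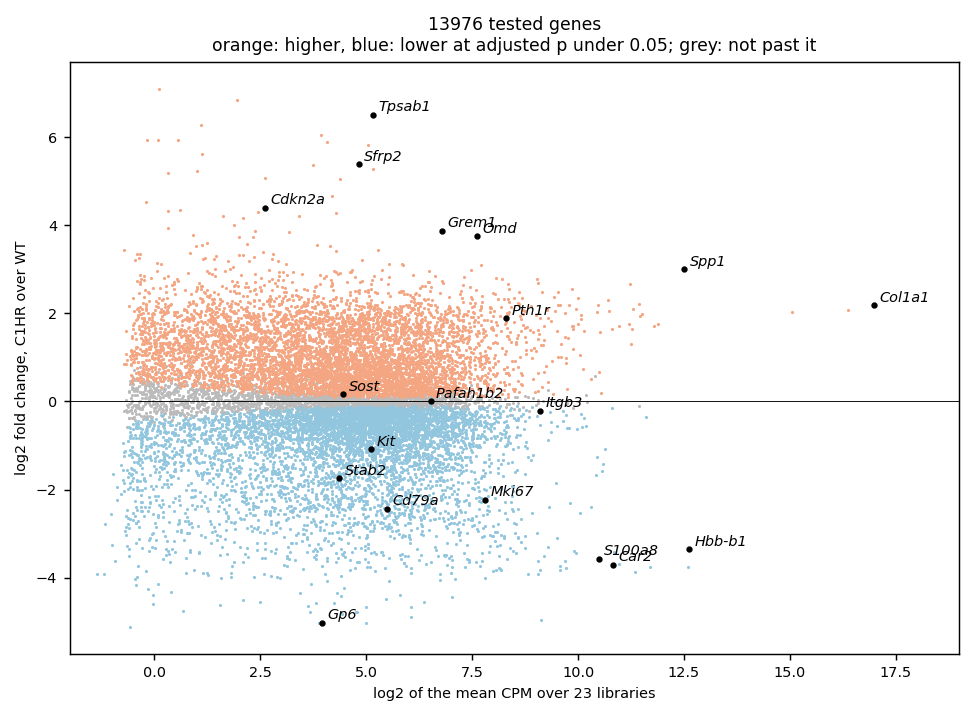
Log2 fold change of C1HR over WT (edgeR, vertical axis) against the log2 of the mean CPM over 23 libraries (horizontal axis) for 13976 tested genes. Col1a1 is the gene with the highest level and rose by 2.19, Tpsab1 lies at 6.50, Gp6 at -5.03, and Sost and Pafah1b2 lie near 0.

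Grem1 had the smallest p-value among the genes that rose by over 2-fold. Grem1, which encodes a secreted antagonist of bone morphogenetic proteins, lay between 145 and 255 CPM in C1HR (median 202) and between 11.2 and 16.2 CPM in WT (median 13.7). Its log2 fold change was 3.87 ± 0.09 (SE), and the groups were far apart. Smoc2, a matricellular protein gene, rose by 2.24 ± 0.06. Gja1, which encodes the gap junction protein that couples osteocytes, lay between 1791 and 2605 CPM in C1HR (median 2195) and between 441 and 592 CPM in WT (median 539), a 4.11-fold difference. Prrx1, a limb mesenchyme transcription factor, rose 4.75-fold, and Cdh11, the osteoblast cadherin, rose 3.97-fold. The others in this set of 10 were Spock1 (6.05), Nupr1 (2.37), Flrt2 (2.58), Sorbs2 (1.92) and 2310046A06Rik (1.88), given as log2 fold changes. Not 1 of these 10 genes had a C1HR library inside the WT range. That follows largely from picking the smallest p-values, and C1HR lay wholly above WT for 27.8% of all tested genes.

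The 10 genes that fell by over 2-fold with the smallest p-values included genes of platelets. F2rl3, the platelet thrombin receptor gene, lay between 3.10 and 5.81 CPM in C1HR (median 4.2) and between 15 and 26 CPM in WT (median 18.3), a log2 fold change of -2.20 ± 0.10 (SE). Tbxas1, the thromboxane synthase gene, fell by 2.15, and Arrb2, a beta-arrestin gene, fell by 1.49. The remaining ones were Rbpms2 (-2.17), Ubash3b (-1.64), Sdpr (-2.54), Ppif (-2.09), Ipo5 (-1.03), Mtmr14 (-1.43) and Trim37 (-1.48). For 963 genes, 6.89% of those tested, the 95% interval of the change lay within 1.2-fold in either direction. The tightest interval around 0 belonged to Pafah1b2, at 83.8 to 101 CPM in C1HR and 84.3 to 99.0 CPM in WT, followed by Dcaf11, Ppm1a and Lass2. Without C1HR 8 and 9 these 4 genes sat at -0.13, -0.11, -0.13 and -0.13, close to the shift of -0.11 of the median gene in that fit.

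The genes that took the most counts also differed in kind. In C1HR the top 10 were Col1a1, Col1a2, Sparc, Spp1, Acp5, Ibsp, Ctsk, Mmp13, Col5a2 and Col3a1, genes of bone matrix and of its resorption. In WT, after Col1a1, Col1a2 and Sparc, came Hbb-b1, Hba-a1, Slc4a1, Ngp, Cd24a, S100a9 and Actb. Col1a2 alone took 11.6% ± 1.07 (SD, n = 12) of C1HR gene counts and 3.68% ± 0.632 (SD, n = 11) of those of WT. Counts for Hba-a1 and Hbb-b1 are uncertain, because reads shared with their near-identical copies are not counted to either.

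Promoter sequences of 4 genes whose changes frame the comparison are shown here, a pair that rose and a pair that fell. Each is the 250 bases before the transcription start from RefSeq on build GRCm38.p6, written 5′ to 3′ on the strand of the gene. RUNX, AP-1 and GATA motifs and the cyclic AMP response element TGACGTCA were counted on both strands over all promoters in the table. In the printed windows only motifs chosen for each gene are marked: RUNX and AP-1 for Mmp13, RUNX for Bglap, and GATA for Gp6 and Epor. The marked matches do not overlap one another. The Epor window also holds an unmarked RUNX motif, as its reverse complement. Mmp13 (chr9:7272264-7272513, plus strand) encodes the collagenase of osteoblasts and hypertrophic chondrocytes, and capitals mark a RUNX motif (TGTGGT or its reverse complement) from -118 to -113 and an AP-1 motif (TGANTCA) from -35 to -29, positions counted back from the start.
Mmp13: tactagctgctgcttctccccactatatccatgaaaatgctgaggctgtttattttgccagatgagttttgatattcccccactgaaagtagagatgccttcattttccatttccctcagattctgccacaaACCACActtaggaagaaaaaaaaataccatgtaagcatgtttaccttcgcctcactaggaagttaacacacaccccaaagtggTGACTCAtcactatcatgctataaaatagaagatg
Bglap (chr3:88384467-88384716, minus strand) encodes osteocalcin, and capitals mark a RUNX motif from -132 to -127.
Bglap: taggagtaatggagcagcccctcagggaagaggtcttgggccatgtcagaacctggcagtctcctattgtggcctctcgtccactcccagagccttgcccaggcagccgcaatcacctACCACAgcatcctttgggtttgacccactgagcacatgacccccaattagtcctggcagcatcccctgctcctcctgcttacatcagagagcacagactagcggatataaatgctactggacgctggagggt
Gp6 (chr7:4397745-4397994, minus strand) encodes the platelet collagen receptor, and capitals mark a GATA motif (GATAAG) from -143 to -138.
Gp6: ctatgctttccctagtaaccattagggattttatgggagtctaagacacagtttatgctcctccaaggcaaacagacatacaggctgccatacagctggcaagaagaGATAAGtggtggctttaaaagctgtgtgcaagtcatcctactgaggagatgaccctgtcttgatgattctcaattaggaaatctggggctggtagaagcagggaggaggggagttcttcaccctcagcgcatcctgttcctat
Epor (chr9:21963577-21963826, minus strand) encodes the erythropoietin receptor, and capitals mark the same GATA motif on the other strand, from -55 to -50.
Epor: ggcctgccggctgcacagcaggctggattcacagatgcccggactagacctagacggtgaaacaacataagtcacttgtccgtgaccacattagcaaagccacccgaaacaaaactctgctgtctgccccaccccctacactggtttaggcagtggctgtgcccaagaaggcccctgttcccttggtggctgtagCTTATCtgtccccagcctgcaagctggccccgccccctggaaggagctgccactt
Of 32851 promoter windows of this length in the table, 14.05% hold the RUNX motif, 6.75% the AP-1 motif and 6.55% the GATA motif and 1.55% the cyclic AMP response element, and a match describes letters, not a binding site. Mmp13 lay between 3089 and 5948 CPM in C1HR and between 584 and 1286 CPM in WT, and the other 3 genes are taken up below with their groups.

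Pth1r itself lay between 351 and 580 CPM in C1HR (median 484) and between 97.7 and 160 CPM in WT (median 130), with no overlap. Counts of the gene do not separate the transgene from the native transcript, so the rise is that of their total. Osteoblast matrix and osteocyte genes rose too, with list medians of 1.70 and 2.04. The rise of Pth1r therefore does not check the transgene label. Around the receptor, a list of 22 genes of G proteins, adenylyl cyclases, protein kinase A subunits and receptor desensitisation had 13 members that rose, 6 that fell and 3 that did not pass, with a median of 0.22. The direction of that median is not settled, since it was -0.20 with scaling by total counts. Adcy3, an adenylyl cyclase, rose from 29.4 to 51.2 CPM in WT to 98.1 to 158 CPM in C1HR. Gna11, a Gq-class G protein, rose 2.56-fold, and Prkar1b, a type I regulatory subunit of protein kinase A, rose 3.66-fold.

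Other members of the list fell. Prkar2b, a type II regulatory subunit of protein kinase A, lay between 18.4 and 94.6 CPM in C1HR (median 24.2) and between 232 and 318 CPM in WT (median 258). Its highest C1HR values, 90.3 and 94.6 CPM, were those of C1HR 8 and 9. Adcy7, an adenylyl cyclase like Adcy3, fell by 0.55 without overlap. Arrb1, which encodes a beta-arrestin that uncouples receptors, fell by 2.44 and Grk6, a receptor kinase gene, fell by 1.05 on the log2 scale. Gnas, the stimulatory G protein gene, had a change of only 0.23 ± 0.10 (SE) with an adjusted p of 0.0361, overlapping groups and exons shared with the annotated Nespas. It was -0.20 and passed in the opposite direction with scaling by total counts, and it did not pass without C1HR 8 and 9. The catalytic subunit gene Prkaca (0.08), Adcy6 (0.08) and Gnai2 (-0.04) did not pass.

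Among 14 genes of salt-inducible kinases, CRTC coactivators, class II histone deacetylases and MEF2 factors, 11 rose and 3 fell, with a median of 0.54. With scaling by total counts 7 were higher, 5 lower and the median was 0.13. Mef2c, a transcription factor that acts on the Sost enhancer in bone, lay between 267 and 343 CPM in C1HR (median 297) and between 121 and 184 CPM in WT (median 150). Stk11, which encodes the upstream kinase LKB1, fell by 1.23, and Crtc1 rose by 0.89. Phosphodiesterases, which break down cyclic nucleotides, were split, with 8 of 17 tested genes higher, 7 lower and a median of 0.18. That median was -0.22 with scaling by total counts and -0.03 without C1HR 8 and 9. The split of this list is near that of all tested genes, 43.7% higher and 40.6% lower. Pde7b rose most, from 6.42 to 11.9 CPM in WT to 37.8 to 73.5 CPM in C1HR, and Pde4c (-1.12) and Pde3a (-1.07) fell most.

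Known cyclic AMP target genes were mostly higher, with 13 of 19 tested genes up, 4 down and a median of 0.85, or 0.44 with scaling by total counts. Nr4a2, an orphan nuclear receptor gene induced by PTH, lay between 25.1 and 48.4 CPM in C1HR (median 30.5) and between 5.91 and 8.95 CPM in WT (median 6.68). Lif, a cytokine gene, rose 5.37-fold, and Ptgs2, the inducible cyclooxygenase gene, rose 4.06-fold. Dusp1, a MAP kinase phosphatase gene, went the other way and fell by 0.95 without overlap, and Crem (-0.49), Pde4d (-0.44) and Pde10a (-0.63) fell too. Rgs2 and Ppargc1a did not pass, at -0.19 and -0.08.

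Immediate early genes had 16 of 19 tested genes higher, Myc lower at -0.35, and a median of 1.25. Egr1 lay between 47.0 and 124 CPM in C1HR and between 15.7 and 37.3 CPM in WT, and Fos rose 3.32-fold. Fosl2 and Jun, both parts of AP-1, rose by 1.25 and 1.61.

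Osteoblast genes rose from transcription factors to matrix, with Atf4 as an exception. Of 12 tested transcription factors of the lineage, 11 rose and had no overlap between groups, with a list median of 1.85. Runx2, the master factor of bone formation, lay between 140 and 236 CPM in C1HR (median 199) and between 36 and 55.4 CPM in WT (median 44.3), a 4.51-fold difference. Sp7, which acts downstream of it, rose 3.50-fold, Twist1 rose 5.28-fold and Msx1 rose 5.04-fold. Atf4, a factor of amino acid supply to osteoblasts, had a log2 fold change of -0.00 ± 0.06 (SE) and did not pass.

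All 17 genes on a list of osteoblast matrix proteins and enzymes were tested and rose, with a median of 1.70 and a range from 1.09 for Panx3 to 3.75 for Omd. Omd, the osteomodulin gene, lay between 156 and 662 CPM in C1HR (median 304) and between 19.6 and 31.3 CPM in WT (median 25.3). Bglap lay between 1227 and 2478 CPM in C1HR and between 369 and 736 CPM in WT, and its near-identical copy Bglap2 makes the value of either uncertain. Alpl, the mineralising phosphatase gene, rose 3.26-fold. Spp1, the osteopontin gene, rose more than Ibsp, the bone sialoprotein gene, another matrix protein that binds mineral. The Ibsp to Spp1 count ratio averaged 0.530 in C1HR and 1.27 in WT, a log2 difference of -1.26 with no overlap (permutation test over samples, two-sided, p = 2e-05, the smallest the permutations can give, adjusted p = 8e-05 over 12 ratios).

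Osteocyte genes rose with 1 exception. Of 15 tested genes 14 rose, with a list median of 2.04. Dmp1, a phosphate-regulating matrix protein gene of osteocytes, lay between 1185 and 2050 CPM in C1HR (median 1474) and between 141 and 368 CPM in WT (median 271). Mepe rose 5.71-fold and Kcnk2, a potassium channel gene, rose 7.35-fold. Sost overlapped completely, at 13 to 34.5 CPM in C1HR (median 24) and 7.71 to 33.9 CPM in WT (median 20.1), and its log2 fold change of 0.17 ± 0.21 (SE) did not pass. Set against Dmp1, the Sost count was 5.10-fold lower in C1HR, with no overlap in 12 against 11 libraries (adjusted p = 8e-05, permutation test). This ratio compares counts of the genes and does not say which cells changed.

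**Figure D2:**
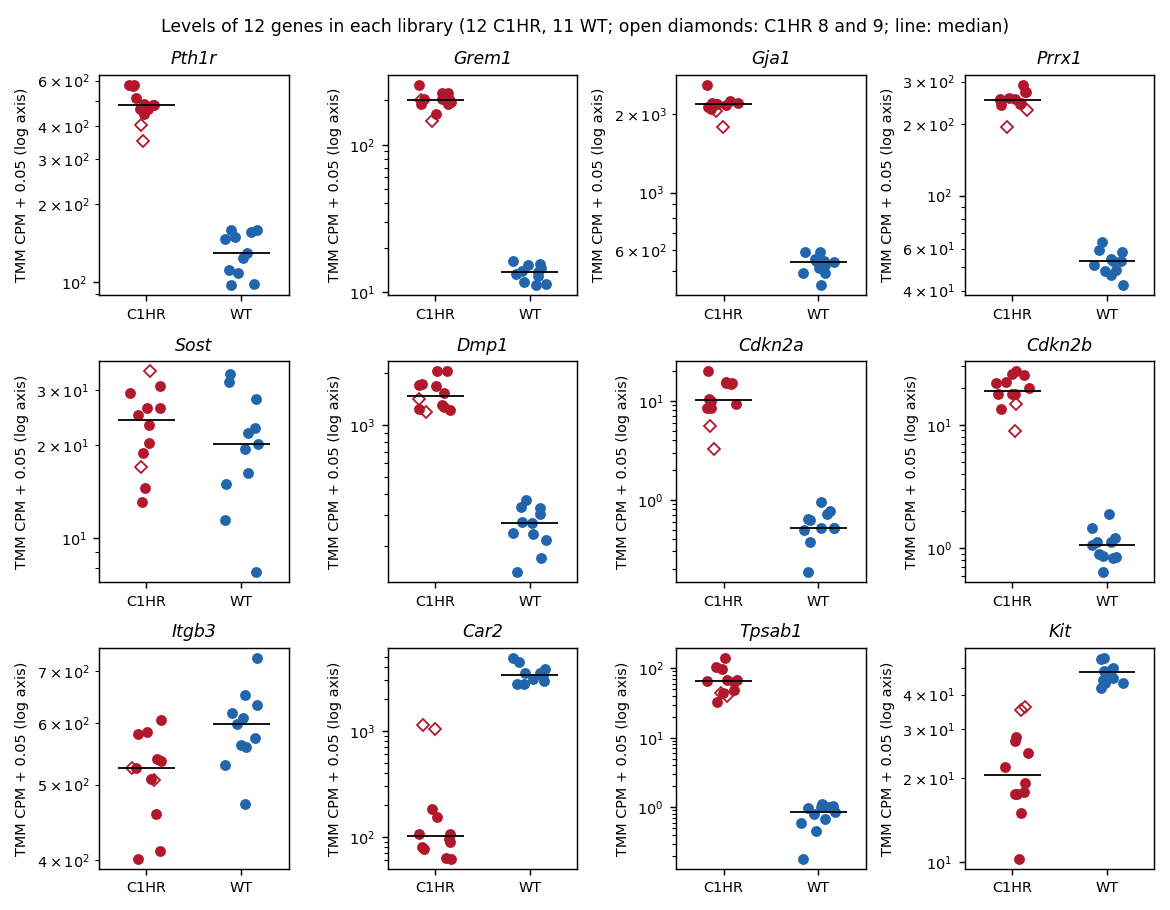
CPM of 12 genes in each library on log axes, for 12 C1HR and 11 WT libraries, with a line at each group's median and open diamonds for C1HR 8 and 9. Dmp1 is wholly higher in C1HR while Sost overlaps, and for Car2 the open diamonds at 1143 and 1048 CPM lie between the other C1HR libraries and WT.

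Collagens, those of bone among them, rose in 16 of 17 cases, with a median of 2.18, and Col14a1 (-0.08) did not pass. Col5a3 rose 8.69-fold, and Col3a1, a collagen of young and fibrous matrix, lay between 2446 and 4891 CPM in C1HR (median 4113) and between 410 and 977 CPM in WT (median 661). Col3a1 was 1.42-fold higher relative to Col1a1 (adjusted p = 0.0141, permutation test, above the WT mean in 12 of 12 C1HR libraries). The Col1a2 to Col1a1 ratio differed by only -0.10 on the log2 scale and did not pass (adjusted p = 0.104), which is the pair that assembles into the same type I fibril. Bglap was 1.5-fold lower relative to Col1a1 (adjusted p = 0.00533).

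The enzymes that fold, cut and crosslink collagen rose together. All 21 listed genes were tested, all 21 rose, and in all 21 the lowest C1HR library lay above the highest WT library, with changes from 0.94 for Ppib to 2.62 for P4ha3. Adamts2 and Bmp1, the proteinases that remove the ends of procollagen, rose by 2.35 and 2.19. Lox, which crosslinks the fibrils, lay between 1167 and 1988 CPM in C1HR (median 1564) and between 363 and 555 CPM in WT (median 438). Creb3l1, a membrane-bound factor for collagen secretion, rose 4.16-fold. On the broader list of 26 folding and secretion genes 16 rose and 4 fell, where 43.7% of all tested genes rose and 40.6% fell. The list median of 0.36 became -0.05 with scaling by total counts, with 10 higher and 12 lower. Hspa5 (0.26), Calr (0.14) and Hsp90b1 (0.14), the abundant chaperones, did not pass, and Asns fell by 1.89.

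Small leucine-rich proteoglycans, which space collagen fibrils, rose in 10 of 13 tested genes, with a list median of 1.57. Among them were Ogn (3.11), Lum (1.66) and Dcn (1.57), while Prelp (0.09), Epyc (0.15) and Kera (0.88) did not pass. Of 14 matricellular genes 13 rose, with a median of 1.71. Thbs4 led at 2.98, and Thbs1, the thrombospondin of platelets and other cells, fell by 1.00. Of 15 tested matrix metalloproteinases and inhibitors 12 rose, with a list median of 1.60. Mmp2 lay between 1214 and 1960 CPM in C1HR and between 248 and 386 CPM in WT. Those that fell were Mmp8 (-3.06) and Mmp25 (-2.82), which neutrophils make, and Timp3 (0.24) did not pass. Mmp13 and its inhibitor Timp1 rose together, and their ratio differed by -0.23 on the log2 scale (adjusted p = 0.0580, permutation test), which did not pass. Mineral genes rose in 14 of 15 tested cases, with a median of 1.70 and with Enpp1, which makes the mineralisation inhibitor pyrophosphate, at 2.09. Slc20a1 and Slc20a2, a pair of phosphate transporters, split, with log2 fold changes of -2.35 and 1.93.

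Tested Wnt genes rose on both the activating and the inhibiting side. Of 19 Wnt ligands listed, 10 passed the filter on low counts and all 10 of these rose, with Wnt5a at 1.97, Wnt5b at 2.11 and Wnt9a at 3.32. A ligand gene with low counts can pass this filter through C1HR alone. That all 10 tested ligands rose is therefore partly set by the filter. Of 14 tested antagonists and receptors 13 rose, with a median of 1.74, and the exception was Sost. Sfrp2, which encodes a secreted Wnt-binding protein, ranged widely in C1HR, from 6.38 to 103 CPM (median 54.7), against 0.596 to 2.08 CPM in WT (median 1.19). Sfrp1 rose 8.55-fold, and Notum, the enzyme that inactivates Wnt proteins, rose 3.75-fold. Wif1, at 255 to 424 CPM in C1HR and 79.8 to 145 CPM in WT, was 2.85-fold higher.

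Feedback genes that Wnt signalling induces rose in 9 of 11 tested cases, with a median of 1.71. Axin2 lay between 9.08 and 14 CPM in C1HR (median 12.2) and between 1.26 and 3.42 CPM in WT (median 2.16), and Nkd2 rose 5.70-fold. Lef1 (0.14) did not pass. Lgr5, a stem cell receptor gene that is also a Wnt target, fell by 2.13 with no overlap, at 0.351 to 2.36 CPM in C1HR against 2.60 to 5.96 CPM in WT.

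Genes of the bone morphogenetic protein axis rose in 23 of 24 tested cases, ligands and antagonists alike, with a median of 1.67. Bmp2 lay between 28.5 and 38.7 CPM in C1HR and between 8.95 and 14.8 CPM in WT. Besides Grem1, the antagonist Fst (3.21) rose more than any ligand on the list, and Chrdl1, another antagonist, fell by 2.21. FGF genes rose in all 13 tested cases of 19 listed, with a median of 1.95. Fgfr3 rose 6.58-fold and its ligand Fgf9 5.61-fold, the latter at levels under 3 CPM in each library. Genes this low can pass the filter on low counts through C1HR alone. TGF-beta genes rose in 16 of 18 cases, with a median of 1.22. Tgfb1 (0.09) did not pass, and Lrrc32, which holds latent TGF-beta on platelets and regulatory T cells, fell by 2.00. IGF genes rose in 12 of 15 cases, with a median of 1.34, Igf2 at 2.44 and Igf1 at 0.88. Irs2 fell by 1.26, and Igf1r (-0.09) and Igfbp2 (-0.05) did not pass. Notch genes rose in 13 of 15 tested cases with a median of 0.99, or 0.57 with scaling by total counts. In the interleukin-6 family Lif and Socs3 (1.98) rose and Osm, a cytokine of blood cells, fell by 2.20. Semaphorin, ephrin, Slit and netrin genes, which guide axons and act between bone cells, rose in 29 of 30 cases, with a median of 1.77. Plxna2 (2.68) and Slit2 (2.50) led, and Sema3c (0.39) did not pass.

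Developmental identity genes rose as well. All 25 Hox genes that passed the filter, of 40 listed, rose, from 0.54 for Hoxa4 to 2.55 for Hoxd9, with a median of 1.825. All 8 tested limb and T-box factors of 12 listed rose too, with a median of 2.06. The filter on low counts can keep a gene through C1HR alone. That all tested members rose is therefore partly set by the filter. All 14 tested imprinted growth genes of 16 listed rose, with a median of 1.42. Igf2 was highest and Gnas, whose direction depends on the scaling, lowest, with H19 at 1.41 and Plagl1 at 2.14.

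**Figure D3:**
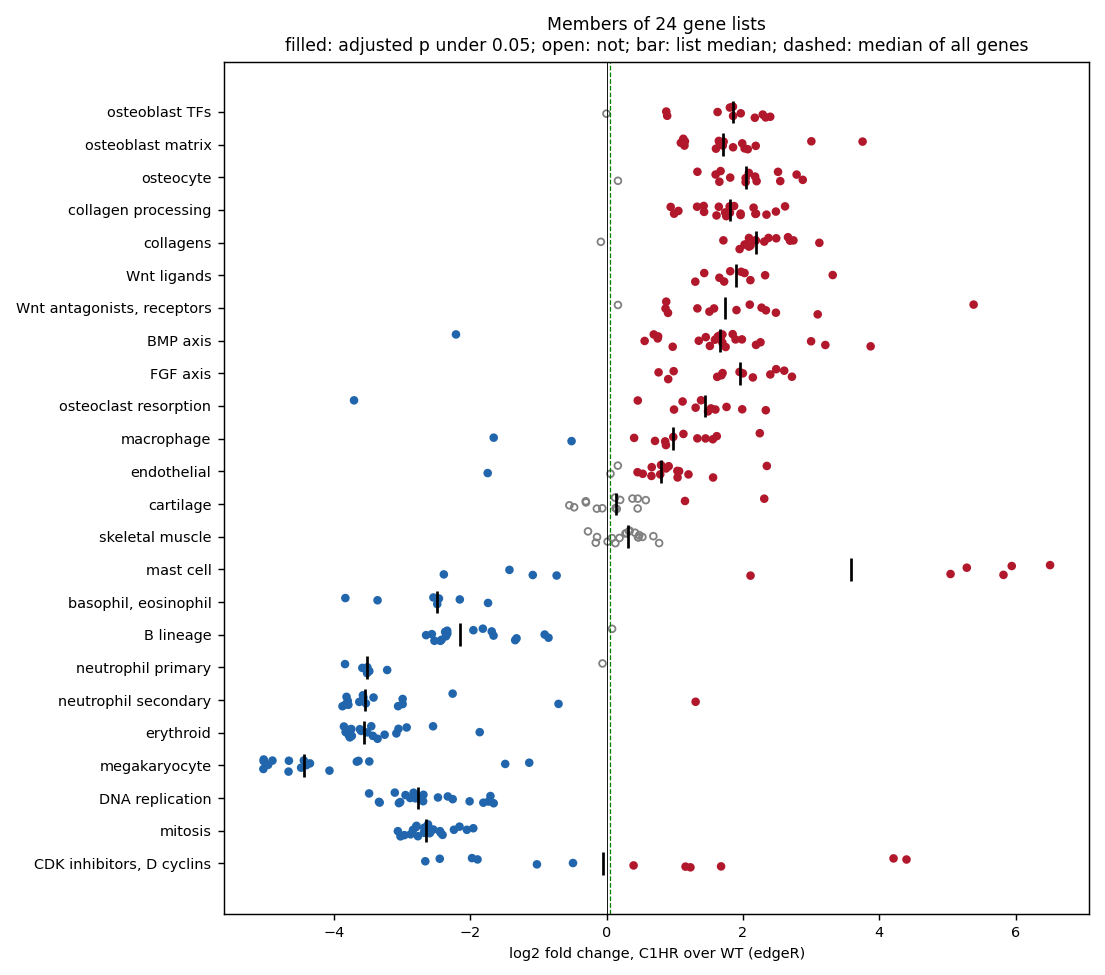
Log2 fold changes of the tested members of 24 gene lists, with filled points for an adjusted p under 0.05, open points for the rest, a bar at each list's median and a dashed line at the all-gene median of 0.05. Medians of the bone lineage, collagen, Wnt, BMP, FGF, osteoclast, macrophage and endothelial lists lie to the right. Those of the eosinophil, B lineage, neutrophil, erythroid, megakaryocyte, DNA replication and mitosis lists lie to the left. The cartilage and skeletal muscle medians, 0.14 and 0.31, lie nearer the dashed line, and the mast cell list and the CDK inhibitor list are split.

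Osteoclast genes rose, but not as a block. Among 12 resorption genes 11 rose, with a median of 1.44. Ctsk, the collagen-degrading cathepsin gene, lay between 3123 and 7249 CPM in C1HR (median 4349) and between 898 and 1362 CPM in WT (median 1128). Calcr, the calcitonin receptor gene, rose 5.05-fold. Car2, which encodes the carbonic anhydrase that supplies protons for resorption and is also abundant in red cells, fell by 3.70, from 2751 to 4819 CPM in WT to 62.3 to 1143 CPM in C1HR, and its change was -5.21 without C1HR 8 and 9. Of 14 tested genes of osteoclast differentiation 12 rose, with a median of 1.48, Csf1r at 1.62 and Tnfrsf11a at 1.93, and Tyrobp (0.03) did not pass. Itgb3, the integrin gene shared by osteoclasts and platelets, fell by 0.21 with overlapping groups, and its count relative to Acp5 was 3.88-fold lower with no overlap (adjusted p = 8e-05, permutation test). Proton pump subunits rose in 15 of 18 tested cases with a median of 0.60, led by Atp6v0d2 (1.60) and Tcirg1 (1.39), the subunits of the osteoclast pump. With scaling by total counts 9 were higher, 5 lower and the median was 0.20.

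Of 7 tested factors that act on osteoclast formation 6 rose, with a median of 2.11, and Tnfsf14, a cytokine gene of immune cells, fell by 3.44. Tnfsf11, the RANKL gene, lay between 17.7 and 36.4 CPM in C1HR and between 5.12 and 8.06 CPM in WT. Tnfrsf11b, its decoy receptor, lay between 27.9 and 40.8 CPM and between 4.16 and 8.80 CPM. Their ratio was 1.2-fold lower in C1HR (adjusted p = 0.0157, permutation test, below the WT mean in 10 of 12 libraries), and without C1HR 8 and 9 it did not pass (adjusted p = 0.0555). Csf1 rose 4.37-fold and Il34, the other ligand of the same receptor, by only 0.40, a change that was -0.01 and did not pass with scaling by total counts. Relative to Col1a1, Acp5 was 1.35-fold lower in C1HR (adjusted p = 0.0394), a difference that also did not pass without C1HR 8 and 9 (adjusted p = 0.0662).

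**Figure D4:**
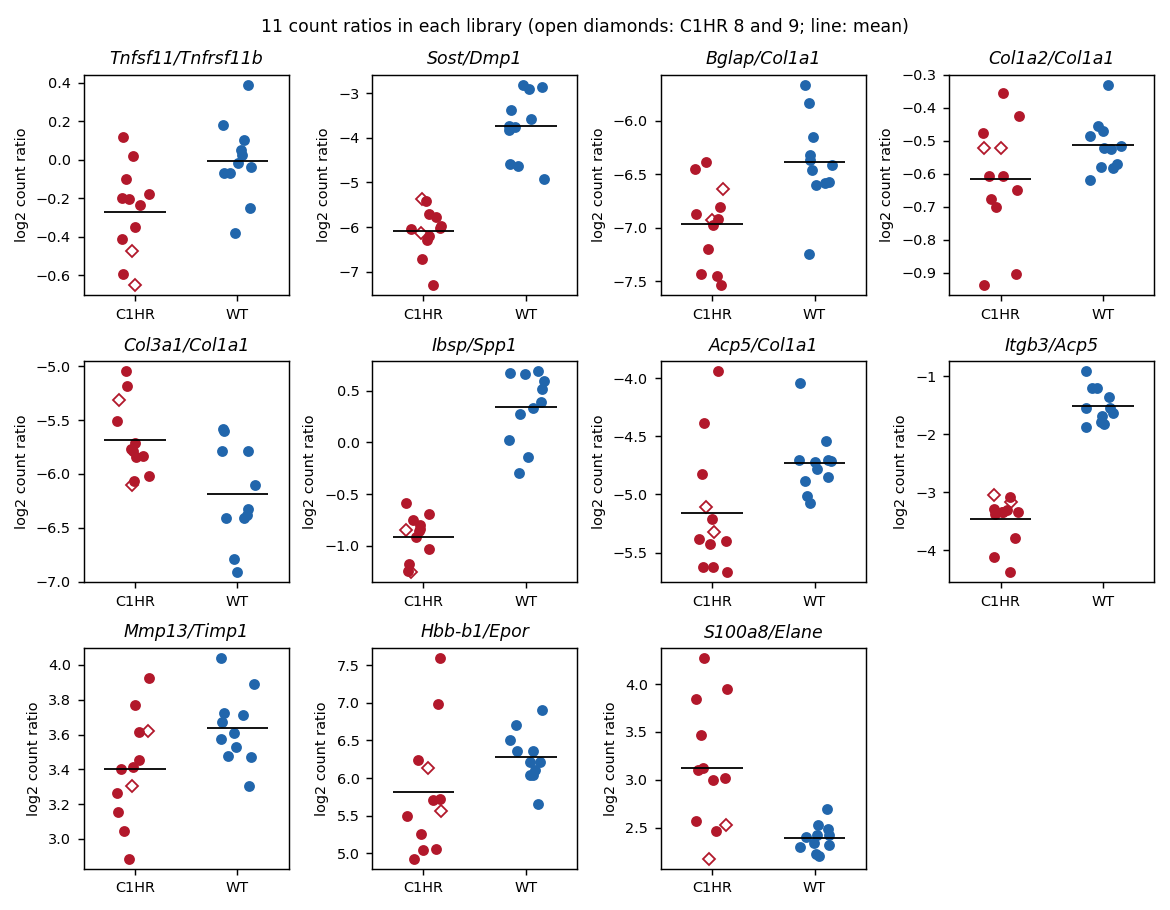
Log2 ratios of the counts of 11 gene pairs in each library, for 12 C1HR and 11 WT libraries, with a line at each group's mean and open diamonds for C1HR 8 and 9. Sost/Dmp1, Ibsp/Spp1 and Itgb3/Acp5 separate the groups without overlap, and the other 8 ratios overlap.

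Blood-forming genes fell in lineage after lineage. All 20 erythroid genes fell with no overlap, with a median of -3.56, or -5.28 without C1HR 8 and 9. Summed, they amounted to 1841 CPM in the median C1HR library, 14778 and 12380 CPM in C1HR 8 and 9, and 29512 to 61936 CPM in WT. Hbb-b1, the adult beta-globin gene, lay between 178 and 4120 CPM in C1HR (median 663) and between 6547 and 21046 CPM in WT (median 10797). Epor fell from 116 to 182 CPM in WT to 5.83 to 67.1 CPM in C1HR. The Hbb-b1 to Epor ratio differed by -0.47 on the log2 scale and did not pass (adjusted p = 0.104, permutation test), and it was -0.48 without C1HR 8 and 9. All 13 genes of haem synthesis and its iron supply fell too, with a median of -2.98, or -3.79 without C1HR 8 and 9.

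All 17 megakaryocyte and platelet genes fell with no overlap, with a median of -4.44, or -5.69 without C1HR 8 and 9. Ppbp, the platelet chemokine gene, lay between 3.25 and 168 CPM in C1HR (median 6.92), where 168 and 150 CPM belonged to C1HR 8 and 9, and between 695 and 1612 CPM in WT (median 1150). Gp6 lay between 0 and 4.58 CPM in C1HR and between 19.4 and 43.7 CPM in WT. P2ry12 (-1.13) and Nbeal2 (-1.49) fell least.

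Neutrophil granule genes fell in both granule classes. Of 8 primary granule genes 7 fell, with a list median of -3.51, and Gstm1 (-0.06) did not pass. Of 16 secondary and tertiary granule and surface genes 15 fell, with a median of -3.55, and Mmp9, which osteoclasts also make, rose by 1.31. Without C1HR 8 and 9 these medians were -4.71 and -4.53. S100a8 lay between 37.9 and 838 CPM in C1HR (median 137) and between 1934 and 3371 CPM in WT (median 2702), and Elane, a protease gene of immature neutrophils, fell by 3.83, with -5.26 without C1HR 8 and 9. Their ratio was 1.66-fold higher in C1HR (adjusted p = 0.00246, permutation test, above the WT mean in 11 of 12 libraries) and 1.84-fold higher without C1HR 8 and 9, that is, the early gene was lower relative to the late one.

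The B lineage was less reduced. Of 18 tested genes 17 fell, with a median of -2.14, or -2.44 without C1HR 8 and 9. Cd79a, a B-cell receptor subunit gene, lay between 5.40 and 29.8 CPM in C1HR (median 11.8) and between 62.7 and 94.6 CPM in WT (median 78.2). Ebf1, a B-lineage factor that stromal cells and adipocytes also express, did not pass at 0.08. T and natural killer cell genes were mixed, with 3 of 16 tested genes higher, 8 lower and 5 not passing, and Cd4 at 1.89 went against Cd3d at -2.11. The list median was -0.51, or -0.59 without C1HR 8 and 9 and -0.91 with scaling by total counts.

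Basophil and eosinophil genes fell in all 7 tested cases of 10 listed, with a median of -2.48 that was -4.22 without C1HR 8 and 9. Epx, the eosinophil peroxidase gene, overlapped WT only through C1HR 8 and 9, at 52.5 and 16.3 CPM against 14.4 to 54.7 CPM in WT. Blood stem and progenitor genes divided, with 5 of 13 tested genes higher, 7 lower and a median of -0.73, or -0.92 without C1HR 8 and 9 and -1.14 with scaling by total counts. Slamf1 (-4.59, or -5.93 without C1HR 8 and 9) and Myb (-3.02, or -3.95) fell, while Hoxa9 (1.45), Mecom (0.95) and Cd34 (0.95), which vessels or mesenchyme also express, rose.

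**Figure D5:**
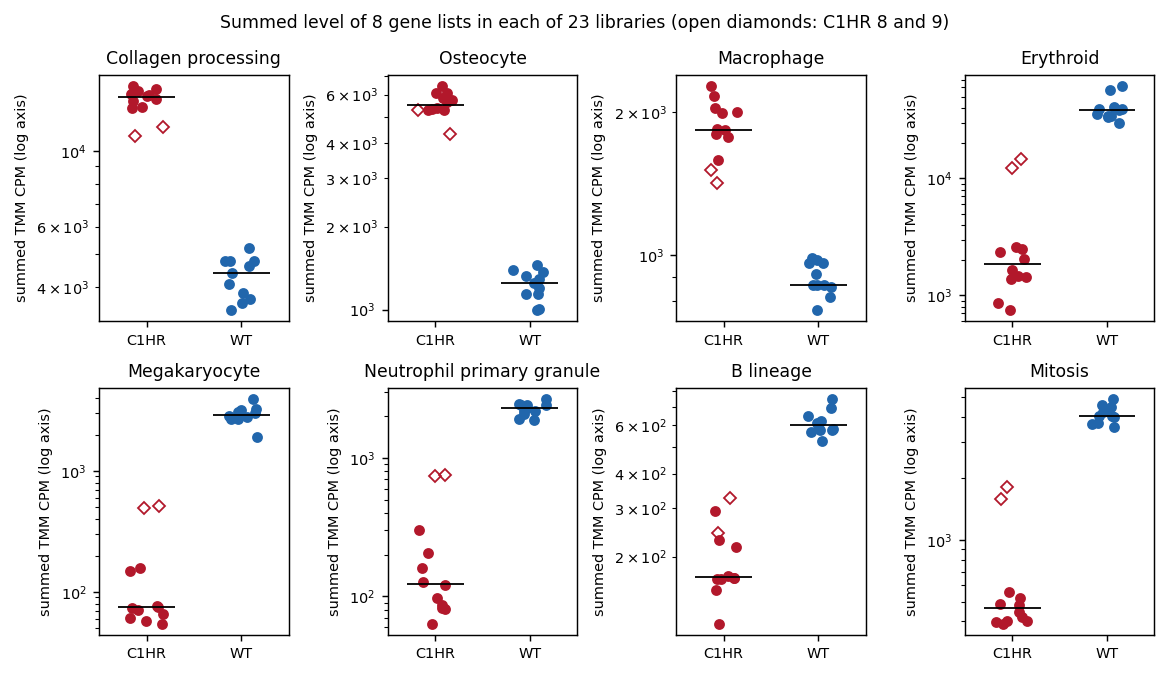
Summed CPM of 8 gene lists in each of 23 libraries on log axes, with a line at each group's median and open diamonds for C1HR 8 and 9. In the erythroid, megakaryocyte, primary granule and mitosis panels C1HR 8 and 9 lie between the other C1HR libraries and WT, and in the collagen processing panel C1HR lies above WT.

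Macrophage genes did not fall with the other blood cells. Of 13 tested genes 11 rose, with a median of 0.98 that was the same without C1HR 8 and 9 and 0.57 with scaling by total counts. Cx3cr1, a chemokine receptor gene, lay between 33.5 and 68.5 CPM in C1HR (median 52.7) and between 8.63 and 12.8 CPM in WT (median 11.3). Mrc1, the mannose receptor gene, rose 2.18-fold. Timd4 (-1.66) and Vcam1 (-0.51), an adhesion molecule of macrophages in erythroid islands, fell.

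Mast cell genes were split, with 6 of 10 tested genes higher, 4 lower and a median of 3.58, or 3.51 without C1HR 8 and 9. The granule protease genes of connective tissue mast cells rose, with Tpsab1 at 32.4 to 139 CPM in C1HR (median 64.5) against 0.131 to 1.04 CPM in WT (median 0.794). Mcpt4 rose 56.5-fold, Cma1 rose 33-fold and Cpa3 rose 4.32-fold. Tpsab1 and Tpsb2 are close copies, and the split of counts between them is uncertain. The receptor and histamine genes Kit (-1.08), Ms4a2 (-1.42) and Hdc (-2.39), and the factor Gata2 (-0.73), fell without overlap. Without C1HR 8 and 9 these changes were -1.38, -1.77, -2.92 and -0.92. Kit lay between 10.2 and 36 CPM in C1HR, with C1HR 8 and 9 at 35.2 and 36 CPM, and between 42.3 and 53.9 CPM in WT, and basophils or blood progenitors also express these 4 genes.

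DNA replication and mitosis genes fell together. All 22 replication genes fell with a median of -2.77, all 22 mitosis genes fell with a median of -2.64, and in neither list did the groups overlap for any gene. Without C1HR 8 and 9 these medians were -3.38 and -3.22. Mki67, a marker of dividing cells, lay between 27.4 and 252 CPM in C1HR (median 51.5) and between 268 and 738 CPM in WT (median 329). Summed mitosis genes came to 464 CPM in the median C1HR library, 1592 and 1807 CPM in C1HR 8 and 9, and 3562 to 4878 CPM in WT. The erythroid sums given above moved with them, and their part in this result was not tested.

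Cell-cycle regulators diverged. Cdkn2a and Cdkn2b, neighbouring genes of cyclin-dependent kinase inhibitors, rose by 4.40 and 4.21 from low levels. Cdkn2b lay between 8.87 and 27 CPM in C1HR (median 18.8) and between 0.593 and 1.85 CPM in WT (median 1.01), and Cdkn2a between 3.19 and 19.8 CPM and between 0.137 and 0.899 CPM. Both were lowest among C1HR libraries in C1HR 9. Cdkn1a (1.23), Ccnd1 (1.68) and Ccnd2 (1.16) rose as well. Ccnd3 (-2.45), Cdkn2d (-2.66), Cdkn2c (-1.97), Cdk6 (-1.89) and Cdkn1b (-1.02) fell. Of the 12 tested regulators 6 rose and 6 fell, with a median of -0.05. That split is near the one over all tested genes, 43.7% higher and 40.6% lower.

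Stroma and vessels were higher. Of 21 marrow niche and progenitor genes 19 rose, with a median of 1.27. Lepr, a marker of perivascular stroma, lay between 134 and 208 CPM in C1HR (median 160) and between 49.7 and 77.6 CPM in WT (median 67.1). Cxcl12, the chemokine gene that retains blood stem cells in marrow, rose by only 0.66, with overlapping groups at 952 to 2508 CPM and 965 to 1356 CPM, and did not pass with scaling by total counts (0.25). Angpt1, another niche factor gene, fell by 0.98 without overlap. Endothelial genes rose in 14 of 17 cases with a median of 0.80, or 0.38 with scaling by total counts. The scavenger receptor genes Stab1 and Stab2 went opposite ways, Stab1 up 5.10-fold and Stab2, a marker of marrow sinusoids, down by 1.74 with overlapping groups, and Stab1 is also expressed by macrophages.

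Markers of tissues next to bone mostly did not pass or were split. Not 1 of 18 skeletal muscle genes passed, and their sums ran from 205.6 to 3408 CPM in C1HR and from 62.6 to 4255 CPM in WT. The medians of the muscle and cartilage lists, 0.31 and 0.14, were -0.07 and -0.27 with scaling by total counts. Of 16 cartilage genes only Col11a2 (2.31) and Sox9 (1.15), which osteoblasts or their precursors also express, passed. Of 10 tested fat cell genes 3 were higher and 3 lower, both below the shares of all tested genes, 43.7% and 40.6%. Slc2a4 (-2.10) and Cfd (-1.51) were among the lower ones, and Adipoq (-0.26) was among 4 that did not pass. The median of the fat cell list, 0.18, was -0.23 with scaling by total counts, with 1 higher and 5 lower. Tendon and fibroblast genes rose in 10 of 12 cases, with a median of 1.47 and Scx at 2.41, and Pi16 fell by 2.40. Nerve sheath genes were split, with a median of 0.69, S100b (2.94) higher and Mbp (-1.88) lower.

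Interferon-induced genes fell more often than they rose, 11 against 4 of 17 tested, with a median of -0.57 (-0.68 without C1HR 8 and 9, -0.98 with scaling by total counts), Rsad2 at -3.14 and Oasl2 at 1.18. Glucose metabolism genes fell in 13 of 24 cases and rose in 4, with a median of -0.22, where 40.6% of all tested genes fell. With scaling by total counts 19 fell, 3 rose and the median was -0.61. Slc16a1, a lactate transporter gene, was at -2.84 and Eno2 at 2.61. Ribosomal protein genes had a median of -0.24, with 40 of 79 tested genes lower and 4 higher, or 65 and 1 with scaling by total counts. Their sum was 14514 and 16615 CPM in C1HR 7 and 11, 7837 to 11145 CPM in the other C1HR libraries and 11180 to 14992 CPM in WT, and without these libraries 65 were lower and the median was -0.42. Respiratory chain genes had a median of only -0.16, with 35 of 82 lower and 8 higher. That lower share is near the 40.6% of all tested genes. The counts were 60 and 5 without C1HR 7 and 11 (median -0.33) and 59 and 1 with scaling by total counts (median -0.55). Both families have many processed copies in the genome, so their unique counts are uncertain.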

How the data were processed

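Single-end reads of 23 libraries from mouse femoral cortical bone had been aligned with STAR (mm9, Ensembl genes) and assigned to genes with HTSeq 0.6.0 by the authors, per the submitters' design text, and without regard to strand, per the names of the deposited files. The deposited values are raw counts for 37583 genes, beside 5 tallies of unassigned reads, which were left out here. The design text calls them CPM, but they are whole numbers whose totals differ between libraries. Names and exon overlaps came from GENCODE vM1, which matched 37168 identifiers. Of 221 genes named in the text, 39 share exons with another annotated gene, and counts without strand cannot separate these.

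The filter on low counts was edgeR's filterByExpr with at least 10 counts and a total of 15. It can keep a gene through either group alone. Counts were scaled by TMM and tested with edgeR 4.0.16 in R 4.3.3 (quasi-likelihood F test, Benjamini-Hochberg adjustment over 13976 genes), on C1HR and its WT alone. Folds are 2 raised to the fitted log2 fold change. DESeq2 1.42.0 and limma 3.58.1 served as alternatives, and Python 3.11.15 with scipy 1.17.1 was used for the rest. Count ratios of 12 gene pairs (pseudocount 0.5) were tested with 100000 permutations over samples, two-sided, and 1 of them is not reported here. The fit was tested on simulated data in which few genes changed, so that test does not cover a change in most genes as here. The comparison, members and gene lists were chosen with earlier results of these data known, and lists are described by counts and medians with no set test. The rule for naming genes took a fixed set of bone and blood genes and both genes of each ratio. It added the 10 genes with the smallest p in each direction, the 10 most counted in each group and the 10 with the tightest interval around 0. In each list it took the 3 smallest p, the extremes and the exceptions, and the text prints a selection of these. Promoters came from RefSeq on GRCm38.p6, a later build than the counts, and are used for sequence only.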

Additional observations from a re-analysis of the deposited data

How the results depend on the processing

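The count of 11787 genes past the threshold lay between 11380 and 14394 under the other scalings, filters and tools and without C1HR 8 and 9 or 7 and 11, and fell to 4481 when edgeR's glmTreat tested against 2-fold. Past 2-fold, scaling by total counts gave 2005 genes that were higher and 3596 that were lower, and testing without a filter on low counts gave 3560 that were lower. Without C1HR 8 and 9 the 2-fold split was 2834 higher and 2799 lower. Of the count ratios, Tnfsf11/Tnfrsf11b (-0.21, adjusted p = 0.0555) and Acp5/Col1a1 (-0.42, adjusted p = 0.0662) no longer passed without C1HR 8 and 9 in the permutation test, and the cause was not tested. Gnas turned to -0.20 with scaling by total counts, the 1 reversal among 221 named genes over all alternatives. Of those genes, 35 were no longer past the threshold under glmTreat. Deviations of same-numbered libraries correlated weakly or not at all (from -0.18 to 0.34), though C1HR 3 and 4 matched best with WT 3 and 4. Such correlations cannot exclude a pairing, and the main fit took samples as unpaired. A fit with the replicate number as a block called 11616 genes, 3040 higher and 2377 lower past 2-fold. A covariate for the Xist level, and leaving out C1HR 7 and 11, were chosen after seeing the data. Single libraries in the 12 against 11 design were not left out in turn. Most genes passed at this depth, so a call alone separates gene groups little.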
